A study of Mus musculus with 13 samples.

Results

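The genes that break down stored fat and coat the lipid droplet were followed in interscapular brown adipose tissue (iBAT). The set held 10 genes, named for their role, but chosen with earlier results of these data known. They were the lipases Pnpla2, Lipe and Mgll, the regulators Abhd5 and G0s2, and the droplet proteins Plin1, Plin2, Plin4, Plin5 and Cidec. All 10 were found among the 42416 Ensembl identifiers counted in each library, and all 10 were among the 13360 genes expressed highly enough to be tested, that is at more than 1 CPM (counts per M counts of the library) in at least 5 libraries.

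Bulk RNA was sequenced from whole iBAT of 13 mice, 1 library per mouse. Both groups carried loxP-flanked (floxed) Axl, the gene of a receptor tyrosine kinase, ate a high-fat diet, lived at room temperature and had tamoxifen every 3 weeks. The 8 iFAXLKO mice were Cre positive and the 5 WT mice were Cre negative. Per the methods of the study, the Cre is Adipoq-CreERT2, a tamoxifen-activated recombinase carried on a bacterial artificial chromosome and active in adipocytes, so that other cells of the tissue should keep Axl and WT mice differ from iFAXLKO mice in the transgene as well as in Axl. The labels give neither the age of the mice nor the length of the treatment.

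The adipocyte stores triglyceride in droplets and releases it in steps. Adipose triglyceride lipase (ATGL, encoded by Pnpla2) removes the first fatty acid, hormone-sensitive lipase (encoded by Lipe) acts mainly on the diglyceride that is left, and monoglyceride lipase (encoded by Mgll) frees the last one. Perilipins on the droplet surface control the access of these enzymes, and in brown fat the fatty acids they release both activate UCP1 and serve as its fuel.

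The sequences just upstream of 4 of the genes are shown because the text returns to these genes, and no result was tested against a sequence. Plin2 had the smallest p of the set, Plin4 and Plin5 lie next to each other on chromosome 17 with 1797 bases between them, and Abhd5 was the gene with the lowest level. Each is the RefSeq sequence of GRCm38.p6 from 250 to 51 bases before the annotated start site, 5′ to 3′ on the gene's own strand, and capitals mark the letters of the motifs searched.
Plin2, chr4:86670110-86670309, minus strand: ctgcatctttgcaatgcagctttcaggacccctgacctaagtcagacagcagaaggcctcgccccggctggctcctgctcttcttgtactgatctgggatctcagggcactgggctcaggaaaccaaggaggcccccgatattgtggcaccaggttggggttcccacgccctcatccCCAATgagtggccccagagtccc
Plin4, chr17:56109833-56110032, minus strand: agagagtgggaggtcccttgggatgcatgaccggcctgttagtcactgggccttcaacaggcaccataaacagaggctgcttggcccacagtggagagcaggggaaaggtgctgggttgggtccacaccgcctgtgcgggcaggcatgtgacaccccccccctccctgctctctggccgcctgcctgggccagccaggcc
Plin5, chr17:56117599-56117798, minus strand: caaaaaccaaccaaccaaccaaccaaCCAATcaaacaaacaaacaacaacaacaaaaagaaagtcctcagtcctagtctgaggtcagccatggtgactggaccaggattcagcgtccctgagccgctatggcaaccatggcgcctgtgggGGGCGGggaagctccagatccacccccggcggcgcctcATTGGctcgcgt
Abhd5, chr9:122351366-122351565, plus strand: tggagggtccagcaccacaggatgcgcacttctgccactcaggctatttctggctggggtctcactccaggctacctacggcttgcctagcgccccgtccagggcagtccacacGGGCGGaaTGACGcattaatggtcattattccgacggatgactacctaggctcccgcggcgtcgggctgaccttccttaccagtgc

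Windows of these 200 bases were searched on both strands for the E-box CACGTG, the cAMP response core TGACG, the CCAAT box CCAAT, the GC box GGGCGG and the direct repeat AGGNCANAGGNCA. The Plin2 window held a CCAAT box at bases 73 to 69 before the start site. The Plin5 window shown held 2 CCAAT boxes and a GC box, whereas the Plin4 window held none of the motifs. Plin5 has another RefSeq start site, whose window held a GC box and no CCAAT box. Bases just after that other site were found in an annotated Plin5 transcript, and those after the site shown were not. The Abhd5 window held a GC box next to a cAMP response core. The 10 genes had 14 windows, since some have more than 1 start site. Of the 14 windows, 6 held the GC box, 2 the CCAAT box, 2 the cAMP response core and 1 the E-box. By gene, the GC box was found for 5, the CCAAT box for 2, the cAMP response core for 2 and the E-box for 1, Lipe. Of all 32851 windows of the same length in the mouse promoter table, 24.6% held the GC box, 28.4% the CCAAT box, 12.7% the cAMP response core and 4.34% the E-box. The direct repeat, in 0.265% of all windows, was in none of those of the 10 genes. These matches describe letters and not binding sites.

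Libraries held 22.44 to 32.6 M counts, of which mitochondrially encoded genes took 18.3% to 21.3%. Axl, the target of the Cre, had no lower count in libraries labelled iFAXLKO than in WT, at 33.1 ± 6.16 CPM (SD, n = 8) against 27.8 ± 3.82 CPM (SD, n = 5), with a log2 fold change of 0.25 (SE 0.13, edgeR adjusted p = 0.699). The counts are per gene, so they do not show whether a floxed exon was lost. Adipoq, the adipocyte gene around which the transgene was built, was higher in these libraries, at 1120 ± 132 CPM against 708 ± 92.7 CPM, with a log2 fold change of 0.66 (SE 0.11, edgeR adjusted p = 0.0118). Of all genes tested, 17 passed an adjusted p of 0.05, which is 0.127%. Lipe lies 359 kb from Axl on chromosome 7.

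The tissue label was checked against marker genes. The 8 brown adipocyte markers, from Ucp1 at 5599 CPM in the libraries labelled iFAXLKO and 6367 CPM in WT down to Prdm16 at 26.3 and 23.4 CPM, were all detected. Of these, Elovl3 alone had an unadjusted edgeR p under 0.05, with a log2 fold change of -0.69 (edgeR adjusted p = 0.474). The summed level of the list was 7373 to 11334 CPM in the libraries labelled iFAXLKO and 9271 to 13935 CPM in WT. Skeletal muscle markers, from Acta1 down to Actn3, were detected in all 12 cases and their sum ranged widely in both groups, from 3.07 to 5573 CPM against 22.9 to 3873 CPM. Of 8 fibroblast markers, from Col3a1 down to Dpp4, 8 were higher with an unadjusted edgeR p under 0.05, which 7.38% of all genes tested had in either direction. None of them passed the adjusted limit by edgeR. DESeq2, which called 0.501% of all genes tested, called 2, Lum (DESeq2 adjusted p = 0.00174) and Dcn (DESeq2 adjusted p = 0.00313). The fibroblast sum was 458 to 993 CPM against 329 to 577 CPM. Of 6 macrophage markers, from Csf1r down to Adgre1, 4 had an unadjusted edgeR p under 0.05, all higher, and the sum was 53.0 to 109 CPM against 46.5 to 67.9 CPM. Endothelial markers (Cdh5 to Emcn) summed to 660 to 1011 CPM against 529 to 791 CPM, Schwann cell markers (Mbp to Sox10) to 42.2 to 56.0 CPM against 42.4 to 47.9 CPM, and white adipocyte markers, led by Retn, to 53.0 to 123 CPM against 22.7 to 132 CPM. Among the white adipocyte markers, Retn had a log2 fold change of 0.87 (edgeR adjusted p = 0.490) and was above the WT mean in 8 of 8, and Tcf21 had a count of 0 in every library. A sum over 4 lymphocyte markers was 12.96 CPM in WT replicate 1 and 3.71 CPM in iFAXLKO replicate 3, and 0.565 to 1.64 CPM in the other libraries. The 4 Y-linked genes on the list, Ddx3y and Uty among them, had a count of 0 in every library, and a count of 0 allows a level of up to 0.134 CPM in the shallowest one.

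None of the 10 lipolysis and lipid droplet genes passed the adjusted limit, by edgeR or by DESeq2, for which the share over all genes tested was 0.501%. Of the 10, 8 had a negative log2 fold change, beside 53.6% of all genes tested, whose median log2 fold change was -0.01. Only Plin2 had an unadjusted edgeR p under 0.05, which 7.38% of all genes tested had. No gene of the set had group ranges in CPM that did not overlap, which 0.434% of all genes tested had. Together the 10 genes took 1.08 ± 0.035% of the counts of a library labelled iFAXLKO (SD, n = 8) and 1.11 ± 0.043% of those of a WT library (SD, n = 5).

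**Figure D1:**
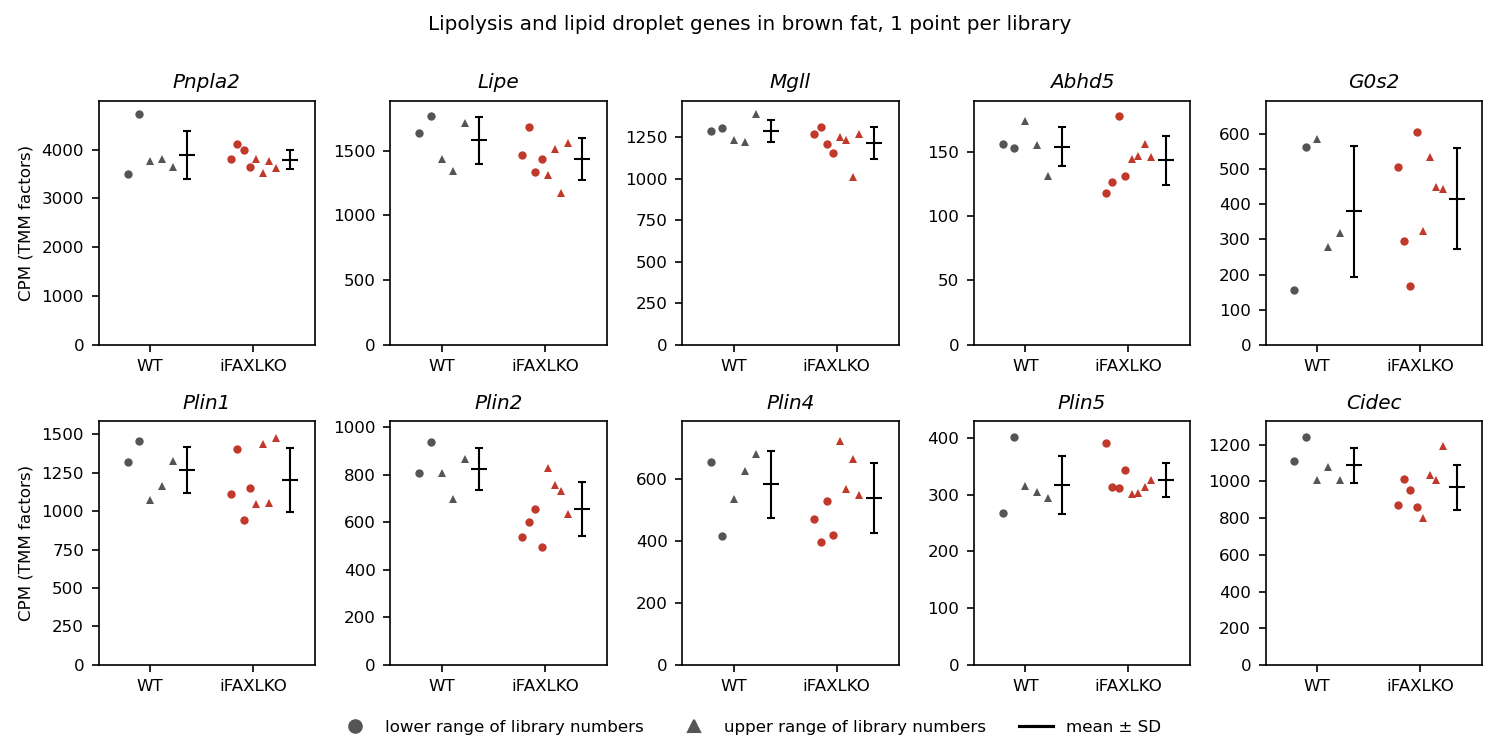
Level of each of the 10 genes in each library, in CPM scaled with TMM factors on axes that start at 0, with WT in grey, iFAXLKO in red, circles for the lower and triangles for the upper range of library numbers, and black bars for the mean ± SD. The group ranges overlap in every panel, 5 of the 8 Plin2 values labelled iFAXLKO lie below the lowest WT value of 698 CPM, and G0s2 spreads the most, from 156 to 605 CPM.

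The 3 lipase genes were abundant, with a negative log2 fold change each, and none passed the limit. Pnpla2 (ENSMUSG00000025509, chromosome 7, 141455198 to 141460743, GRCm38) encodes ATGL, which starts triglyceride breakdown. Its 5 WT libraries held 3492, 4732, 3772, 3806 and 3643 CPM in replicate order, and the 8 libraries labelled iFAXLKO held 3529 to 4125 CPM with a median of 3788 CPM. WT replicate 2 stood above all other libraries, and the other WT values lay at the level of the iFAXLKO ones or just under it. The log2 fold change of Pnpla2 was -0.04 (SE 0.08, 95% interval -0.22 to 0.14, edgeR adjusted p = 0.967), and the exact permutation test of the group means gave p = 0.679. The interval corresponds to 0.861 to 1.10 times the WT level. Without WT replicate 2 the log2 fold change was 0.04, so that its sign rested on that library.

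Lipe (ENSMUSG00000003123, chromosome 7, 25379527 to 25398710) encodes hormone-sensitive lipase, which acts on diglycerides and is switched on by protein kinase A. The WT libraries held 1638, 1767, 1432, 1345 and 1714 CPM, and the libraries labelled iFAXLKO 1176 to 1685 CPM with a median of 1449 CPM. The groups overlapped, although 3 of the 8 iFAXLKO values lay under the lowest WT value and 1 of 8 lay above the WT mean. For Lipe the log2 fold change was -0.14 (SE 0.10, 95% interval -0.35 to 0.07, edgeR adjusted p = 0.815, exact permutation p = 0.172).

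Mgll (ENSMUSG00000033174, chromosome 6, 88724412 to 88828360) encodes monoglyceride lipase, which completes the pathway and also degrades an endocannabinoid. Its WT levels were 1283, 1307, 1233, 1217 and 1390 CPM, and its levels in the libraries labelled iFAXLKO 1007 to 1311 CPM with a median of 1242 CPM. One library, iFAXLKO replicate 7, lay well under the rest for Mgll and was the lowest for Lipe as well. The log2 fold change of Mgll was -0.08 (SE 0.08, 95% interval -0.25 to 0.08, edgeR adjusted p = 0.876, exact permutation p = 0.143).

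The regulators of ATGL were the least abundant gene and the most variable gene of the set. Abhd5 (ENSMUSG00000032540, chromosome 9, 122351608 to 122381524) encodes CGI-58, the co-activator that ATGL needs for full activity and that perilipin 1 holds back in unstimulated cells. The WT libraries held 156, 153, 174, 155 and 131 CPM of Abhd5, and the libraries labelled iFAXLKO 118 to 177 CPM with a median of 145 CPM. The highest and the lowest value of Abhd5 over all 13 libraries were both iFAXLKO values. Its log2 fold change was -0.10 (SE 0.10, 95% interval -0.31 to 0.10, edgeR adjusted p = 0.880, exact permutation p = 0.283).

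G0s2 (ENSMUSG00000009633, chromosome 1, 193272161 to 193273217) encodes a small protein that binds ATGL and inhibits it. Its levels in the WT libraries were 156, 564, 585, 278 and 317 CPM, and in the libraries labelled iFAXLKO 167 to 605 CPM with a median of 448 CPM. Low and high libraries were found in both groups, and the highest level was 3.88 times the lowest, against 1.36 times for Pnpla2. The biological coefficient of variation of G0s2 was 0.408, above that of 96.7% of all genes tested. Its log2 fold change was 0.13 (SE 0.34, edgeR adjusted p = 0.972, exact permutation p = 0.634), with a 95% interval of -0.60 to 0.86, so that a level from 0.659 to 1.82 times that of WT was not distinguishable in these libraries. The sign of the G0s2 change rested on WT replicate 1, without which the log2 fold change was -0.07. WT replicate 1 and iFAXLKO replicate 3, the libraries lowest in G0s2, were those with the highest sums of lymphocyte markers, and the part of these cells in the G0s2 levels was not tested.

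Among the droplet proteins, Plin2 differed the most between the groups. Plin2 (ENSMUSG00000028494, chromosome 4, 86648386 to 86670060) encodes perilipin 2, a droplet coat found in many cell types whose protein is stabilised by neutral lipid. The WT libraries held 806, 937, 808, 698 and 865 CPM, and the libraries labelled iFAXLKO 495 to 827 CPM with a median of 646 CPM. Of the 8 iFAXLKO values, 5 lay under the lowest WT value and 1 lay above the WT mean, so that the groups overlapped only in their upper and lower parts. The mean was 655 ± 113 CPM (SD, n = 8) against 823 ± 87.9 CPM (SD, n = 5), which is 0.796 times the WT level. The log2 fold change of Plin2 was -0.33 (SE 0.12, 95% interval -0.58 to -0.07), with an unadjusted edgeR p of 0.0149 and an adjusted p of 0.535. DESeq2 gave an adjusted p of 0.302, and the exact permutation test of this single gene gave p = 0.0202, where the smallest possible value is 0.000777. After adjustment over all genes tested, the lower level of Plin2 therefore did not pass the limit. In bulk tissue, fewer cells of a type and less RNA per cell cannot be told apart.

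Library numbers in the labels were split here into a lower and an upper range. The lower range held 4 iFAXLKO and 2 WT libraries, and the upper range 4 iFAXLKO and 3 WT libraries. The labels mark no such ranges, and a gap within the upper range was as wide as that at the split. Whether the ranges match how the mice were processed is not given. The Plin2 difference was larger in the lower range, although the difference between the ranges did not pass adjustment. In the lower range the 4 iFAXLKO values were 537, 603, 656 and 495 CPM and the 2 WT values 806 and 937 CPM. These values did not overlap, but with 4 against 2 libraries groups separate easily. The share of all genes tested that did so within this range was not counted. There the log2 fold change was -0.61 (SE 0.15, edgeR adjusted p = 0.208). In the upper range the iFAXLKO values were 827, 757, 733 and 635 CPM beside WT values of 808, 698 and 865 CPM, so the groups overlapped, and the log2 fold change was -0.10 (SE 0.13, edgeR adjusted p = 1.00). The term for the difference between the ranges was 0.51 (SE 0.20) with an unadjusted p of 0.0227, its edgeR adjusted p was 0.662, and no gene passed the adjusted limit for it. Fibroblast markers moved with the groups as well, with a score (mean log2 CPM) 0.60 higher in the libraries labelled iFAXLKO and above the WT mean in 8 of 8. The score of the brown adipocyte markers was 0.19 lower. It was under the WT mean of 8.349 in all 8, but only just in iFAXLKO replicates 3 and 5, at 8.348 and 8.346. Elovl3 was the marker that differed most, and Prdm16 was higher (log2 fold change 0.17). With the fibroblast score as a covariate, the log2 fold change of Plin2 was -0.19 (edgeR adjusted p = 0.9997). The score nearly followed the group label, with a lowest iFAXLKO value of 4.99 and a highest WT value of 5.01. This fit therefore cannot separate the score from the group. Over all genes tested, the number with an unadjusted edgeR p under 0.05 fell from 986 to 159 with the covariate. The part of the fibroblast and brown adipocyte markers in the Plin2 result was not tested further.

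Plin1 (ENSMUSG00000030546, chromosome 7, 79720218 to 79732903) encodes perilipin 1, the main coat of adipocyte droplets, which is phosphorylated when lipolysis is stimulated. Its WT levels were 1316, 1456, 1074, 1164 and 1322 CPM, and its levels in the libraries labelled iFAXLKO 941 to 1477 CPM with a median of 1129 CPM. The iFAXLKO values of Plin1 enclosed all WT values. For Plin1 the log2 fold change was -0.08 (SE 0.12, 95% interval -0.34 to 0.18, edgeR adjusted p = 0.945, exact permutation p = 0.517).

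Plin4 (ENSMUSG00000002831, chromosome 17, 56100591 to 56109803) and Plin5 (ENSMUSG00000011305, chromosome 17, 56111601 to 56117596) lie next to each other on the same strand. Perilipin 4 coats small nascent droplets, and perilipin 5, found in tissues that burn fat, tethers droplets to mitochondria. Plin4 was at 657, 417, 538, 628 and 683 CPM in the WT libraries, and at 397 to 723 CPM with a median of 539 CPM in the libraries labelled iFAXLKO. Plin5 was at 267, 402, 314, 305 and 293 CPM in the WT libraries, and at 300.6 to 391.6 CPM with a median of 314 CPM in the libraries labelled iFAXLKO. WT replicate 2 was the lowest WT library for Plin4 and the highest of all libraries for Plin5. The log2 fold change was -0.11 for Plin4 (SE 0.15, 95% interval -0.44 to 0.21, edgeR adjusted p = 0.928, exact permutation p = 0.494). For Plin5 it was 0.04 (SE 0.10, 95% interval -0.17 to 0.25, edgeR adjusted p = 0.970, exact permutation p = 0.637), a sign that turned without WT replicate 1 (-0.02) and without iFAXLKO replicate 1 (-0.003). The exons of Plin4 overlap those of Hdgfl2 on the opposite strand, and since the strand setting of the counting is not stated, reads of the pair cannot be told apart with certainty. Hdgfl2 was counted at 6.12% of the level of Plin4.

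Cidec (ENSMUSG00000030278, chromosome 6, 113424634 to 113435760) encodes the protein that transfers lipid from smaller to larger droplets and so makes droplets grow. The WT libraries held 1111, 1241, 1006, 1078 and 1006 CPM, and the libraries labelled iFAXLKO 802 to 1193 CPM with a median of 981 CPM. Of the 8 iFAXLKO values, 4 lay under the lowest WT value and 1 lay above the WT mean. Cidec had a log2 fold change of -0.17 (SE 0.10, 95% interval -0.38 to 0.04, edgeR adjusted p = 0.740, exact permutation p = 0.0917). As for Plin2, it was -0.35 in the lower range of library numbers (SE 0.14, edgeR adjusted p = 0.375) and -0.03 in the upper (SE 0.13, edgeR adjusted p = 1.00), and the difference between the ranges had an unadjusted p of 0.121 in the same edgeR fit.

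**Figure D2:**
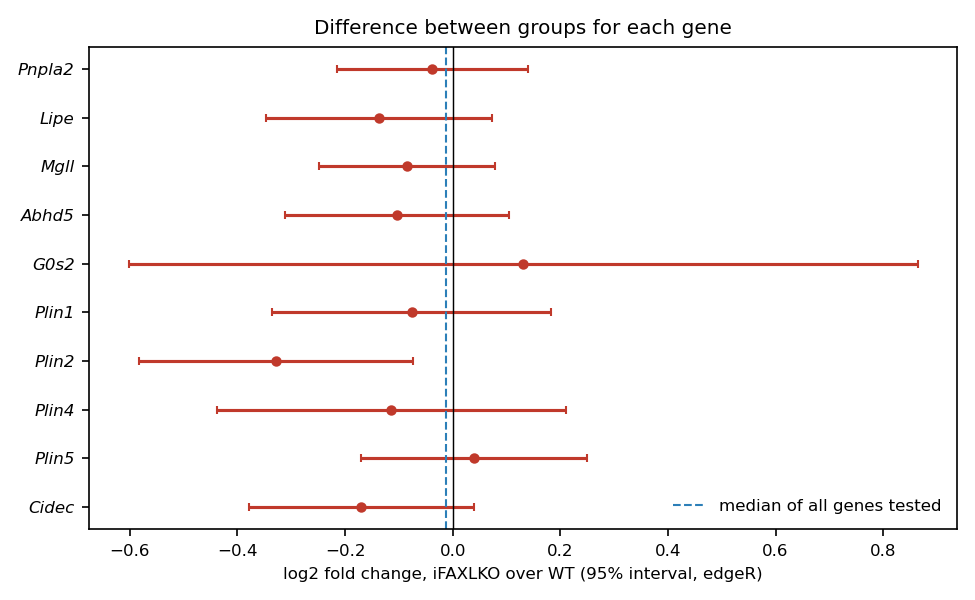
Log2 fold change of the libraries labelled iFAXLKO over WT for each of the 10 genes, as points with 95% intervals from edgeR, with a dashed line at the median of all genes tested. The intervals of 9 genes include 0, that of Plin2 runs from -0.58 to -0.07, and that of G0s2 is the widest, from -0.60 to 0.86.

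Levels per kb of exon were compared to set the genes in order, a scale on which different genes can be compared. Pnpla2 led at 1288 ± 161 CPM per kb in WT (SD, n = 5) and stood above Cidec in 13 of 13 libraries. Cidec followed at 586 ± 52.1 CPM per kb and G0s2 at 436 ± 215 CPM per kb, and since Cidec was above G0s2 in only 9 of 13 libraries these neighbours did not differ beyond their spread. G0s2 was above Plin1, at 272 ± 32.1 CPM per kb, in 11 of 13 libraries, a mean log2 difference of 0.70 with an SD of 0.65. Plin1, Lipe at 268 ± 31.0 CPM per kb and Mgll at 253 ± 13.5 CPM per kb could not be ordered, as each stood above the next in 9 of 13 libraries. Mgll was above Plin2, at 234 ± 25.0 CPM per kb, in 11 of 13 libraries, a mean log2 difference of 0.27 with an SD of 0.27. Plin2 was above Plin5, at 152 ± 24.5 CPM per kb, in 11 of 13 libraries. Plin5 stood above Plin4, at 101 ± 18.8 CPM per kb, and Plin4 above Abhd5, at 25.8 ± 2.55 CPM per kb, in 13 of 13 libraries each. The order of the means was the same in the libraries labelled iFAXLKO, from Pnpla2 at 1255 ± 64.5 CPM per kb to Abhd5 at 24.0 ± 3.13 CPM per kb (SD, n = 8). Among all 13360 genes tested, Pnpla2 ranked 34th and Abhd5 1560th on this scale, and the other 8 lay between them.

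**Figure D3:**
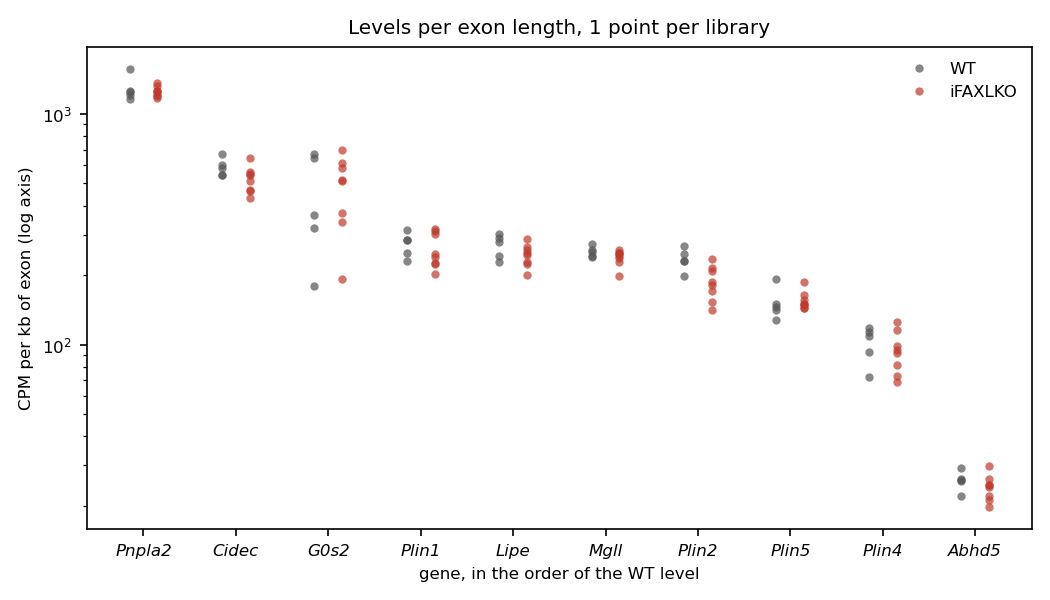
Level per kb of exon in each library on a log axis, with the genes in the order of their WT mean, WT in grey and iFAXLKO in red. Pnpla2 lies apart at the top at 1156 to 1567 CPM per kb, Abhd5 apart at the bottom at 19.7 to 29.8 CPM per kb, and Plin1, Lipe and Mgll share one level.

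Ratios between genes within a library do not depend on how libraries are scaled, and 5 were compared, with p-values adjusted over the 5. The ratio of the co-activator Abhd5 to the inhibitor G0s2 ranged from 0.217 to 1.06 over the libraries. Its mean log2 value was -1.45 ± 0.73 (SD, n = 8) in the libraries labelled iFAXLKO and -1.15 ± 0.76 (SD, n = 5) in WT, a difference of -0.30 (exact permutation p = 0.465, adjusted p = 0.563). This difference was -0.016 without WT replicate 1 and -0.52 without iFAXLKO replicate 3. The ratio of Pnpla2 to G0s2 ranged from 6.04 to 23.8 and differed by -0.23 (exact permutation p = 0.563, adjusted p = 0.563), a sign that turned without WT replicate 1 (0.02). The ratio of Lipe to Pnpla2 ranged from 0.312 to 0.471 and differed by -0.11 (exact permutation p = 0.325, adjusted p = 0.563). Neither balance of ATGL with its regulators, nor that of the first lipase to the next, was thus distinguishable between the groups.

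Among the perilipins, the ratio of Plin2 to Plin1 was lower in 5 of 8 iFAXLKO libraries than in any WT library. Its mean log2 value was -0.87 ± 0.36 (SD, n = 8) against -0.62 ± 0.13 (SD, n = 5), a difference of -0.25 (exact permutation p = 0.155, adjusted p = 0.563). The other 3 iFAXLKO libraries lay at -0.52, -0.34 and -0.52, at or above the WT mean. The ratio of Plin5 to Plin1 was -1.87 ± 0.29 against -2.01 ± 0.22 on the log2 scale, a difference of 0.13 (exact permutation p = 0.376, adjusted p = 0.563) that was 0.33 in the lower and -0.03 in the upper range of library numbers.

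**Figure D4:**
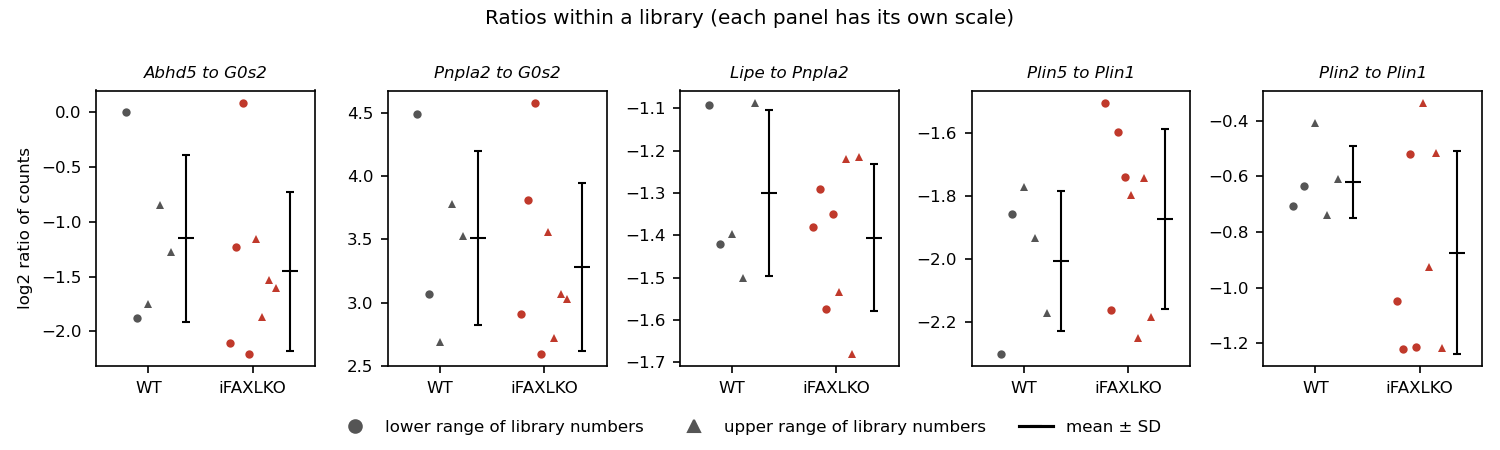
Log2 ratio of counts of 2 genes in each library for the 5 ratios, WT in grey and iFAXLKO in red, circles for the lower and triangles for the upper range of library numbers, and black bars for the mean ± SD. Each panel has its own axis, the groups overlap in all 5, and for Plin2 to Plin1 the iFAXLKO values split into 5 from -1.22 to -0.93 and 3 from -0.52 to -0.34.

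The genes were then compared with each other from library to library, with the group means subtracted, over the 13 libraries and 45 pairs. The median Pearson r was 0.07 and 29 pairs were positive, so the set did not move as 1 block. Lipe rose and fell with Mgll (r = 0.80, permutation p = 0.0006, adjusted over the 45 pairs p = 0.0205, and Spearman's rho = 0.79, permutation p = 0.00222, adjusted p = 0.0499). Lipe also moved with Plin1 (r = 0.81, permutation p = 0.00091, adjusted p = 0.0205, and rho = 0.84, permutation p = 0.00067, adjusted p = 0.0301). Leaving out the 2 libraries most distant from the median Lipe level, r was 0.62 with Mgll and 0.88 with Plin1. Within the lower and the upper range of library numbers, r was 0.74 and 0.86 with Mgll and 0.97 and 0.87 with Plin1, and with a skeletal muscle score removed it was 0.79 and 0.80. These 2 pairs depended on the scaling of the libraries: with CPM without TMM factors r was 0.65 and 0.73, each with a permutation p adjusted to 0.182, and no pair passed the limit. The number of pairs past the limit was 0 without iFAXLKO replicate 2, iFAXLKO replicate 7 or WT replicate 3, and 1 without iFAXLKO replicate 4 or WT replicate 1, whereas r stayed between 0.71 and 0.87 for Lipe with Mgll and between 0.78 and 0.84 for Lipe with Plin1 whichever library was left out.

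Plin4 and Plin5, the neighbours whose upstream sequences are given above, had a negative correlation of r = -0.68 (permutation p = 0.00998) and rho = -0.75 (permutation p = 0.00425), which did not pass the adjustment over the 45 pairs (p = 0.131 and p = 0.0637). Leaving out the 2 libraries most distant from the median level, r was -0.67 by Plin4 and -0.56 by Plin5. It was -0.68 in each range of library numbers, -0.48 within the libraries labelled iFAXLKO and -0.94 within WT, and ran from -0.81 to -0.50 with 1 library left out. Plin1 with Cidec (r = 0.67), Pnpla2 with Plin5 (r = 0.67), G0s2 with Plin5 (r = 0.62) and Pnpla2 with Plin4 (r = -0.60) had an unadjusted permutation p under 0.05 but an adjusted p from 0.131 to 0.164. The Pnpla2 pairs rested on few libraries, as r fell to 0.44 with Plin5 and -0.08 with Plin4 when the 2 libraries most distant from the median Pnpla2 level were left out. No relation of the 10 genes with the skeletal muscle score passed the limit, with Pearson r from -0.33 for Cidec to 0.29 for Pnpla2 and an adjusted permutation p of 0.983 for each.

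**Figure D5:**
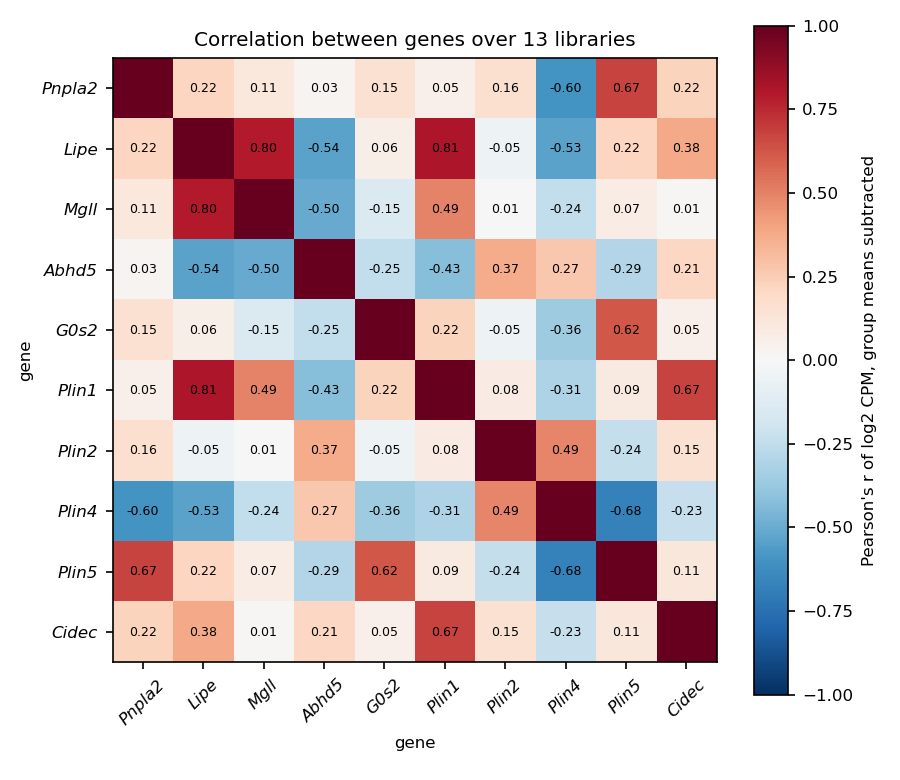
Pearson correlation of log2 CPM between the 10 genes over the 13 libraries after the group means were subtracted, from blue (-1) to red (1). Lipe is red with Mgll (0.80) and Plin1 (0.81), Plin4 is blue with Plin5 (-0.68), and the median over all 45 pairs is 0.07.

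For each gene of the set, the other tested gene that followed it most closely over the 13 libraries is given here, by log2 CPM with the group means subtracted. This is a description, being the highest r of all candidates, and it was not repeated with libraries left out. Fabp4, a fatty acid carrier of adipocytes, followed Pnpla2 (r = 0.96), Pak4 followed Lipe (r = 0.95) and Letmd1 followed Mgll (r = 0.95). Neat1, a nuclear noncoding RNA, followed Abhd5 (r = 0.85) and Gtpbp8 followed G0s2 (r = 0.85), the weakest of these likenesses together with that of Nit1 to Plin2 (r = 0.87). Anxa6 followed Plin1 (r = 0.97), Nepro followed Plin4 (r = 0.96), Ogfod3 followed Plin5 (r = 0.94) and Car3, an abundant carbonic anhydrase of fat, followed Cidec (r = 0.93).

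The other genes of the pathway did not pass the adjusted limit either, in any of 6 lists. Counts of unadjusted edgeR p under 0.05 in these lists stand beside 7.38% of all genes tested. Of 14 other droplet proteins tested, 1 had an unadjusted edgeR p under 0.05, the caveolar coat gene Cavin1 (log2 fold change 0.21, edgeR adjusted p = 0.642), and Ubxn8 came next (-0.15, adjusted p = 0.742). Of 10 other lipid hydrolases, 3 did so, all lower in the libraries labelled iFAXLKO, namely Ddhd2 (-0.24, edgeR adjusted p = 0.512), Pnpla8 (-0.19, adjusted p = 0.571) and the lysosomal acid lipase gene Lipa (-0.23, adjusted p = 0.659). Among the receptors that start or restrain lipolysis, Hcar2 and Hcar1 had the smallest p. Hcar2, a receptor of ketone bodies that restrains lipolysis, was at 3.62 ± 1.53 CPM (SD, n = 8) against 1.88 ± 0.552 CPM (SD, n = 5), with a log2 fold change of 0.95 (edgeR adjusted p = 0.407). Hcar1, the lactate receptor, had a log2 fold change of 1.09 (edgeR adjusted p = 0.571). Adrb3, the main beta-adrenergic receptor of mouse fat, was at 525.9 ± 120 CPM against 575 ± 74.7 CPM, with a log2 fold change of -0.13 (edgeR adjusted p = 0.910).

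Of 16 genes of the cAMP arm that leads to lipolysis, 1 had an unadjusted edgeR p under 0.05, the adenylyl cyclase gene Adcy5, with a log2 fold change of 0.63 (edgeR adjusted p = 0.490). Gnas, which encodes the stimulatory G protein, came next, at -0.20 (adjusted p = 0.698). None of 8 genes for release of fatty acids and glycerol did so, where Acsl1 (-0.16, edgeR adjusted p = 0.809) and Gk (-0.26, adjusted p = 0.810) had the smallest p. None of 6 genes listed with the PPAR gamma program, which drives many genes of the set, did so. That list also held Ppara, the gene of another receptor, PPAR alpha. Ppara (-0.42, edgeR adjusted p = 0.824) and Ppargc1a (-0.07, adjusted p = 0.960) had the smallest p in it. The median log2 fold change of these lists lay between -0.05 and 0.03, beside -0.08 for the 3 lipases, 0.01 for the 2 ATGL regulators and -0.11 for the 5 droplet coat genes. The low levels of Hcar2 limit its precision, whereas each of the 10 lipolysis and droplet genes had at least 3110 counts in every library.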

How the data were processed

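Bulk RNA was measured in iBAT of 8 iFAXLKO and 5 WT mice, grouped by the titles in the labels. The deposited values are raw counts of reads per Ensembl gene, whole numbers that the authors did not normalise. The submitters' processing notes name bcl2fastq 2.20, fastp 0.20.0, STAR 2.7.4a, DESeq2 and GRCm38.p6, whereas the methods of the study name Trim Galore, hisat2 and GRCm38. The labels give polyadenylated RNA and the methods depletion of ribosomal RNA, and the counting tool and strand setting are not given in the sources used here. An unstranded or multi-mapping setting would move counts between overlapping genes, and of the 4 genes whose exons overlap a gene of the set, Hdgfl2 was above 1% of its partner's level, Plin4, and the other 3 under it.

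Genes with CPM over 1 in at least 5 libraries were kept. Scaling was by TMM factors and testing by edgeR 4.0.16 (R 4.3.3), quasi-likelihood F test with robust dispersions, 2-sided, with Benjamini-Hochberg adjustment over the 13360 genes tested and a limit of 0.05. Log2 CPM used a prior count of 2, and intervals are 95%. Single genes and ratios were compared by exact permutation over the 1287 splits into 8 and 5, and correlations by 1e+05 permutations (scipy 1.17.1), all 2-sided. Libraries held 22.44 to 32.6 M counts and no 2 of a group agreed within sampling noise (lowest chi-square per degree of freedom 16.6), so none was treated as a library deposited again. That they are separate mice is taken from the replicate labels, and otherwise p-values measure only the spread between libraries. Floors cover counting error only. The labels number the replicates but do not say how the mice were housed or processed together. GENCODE M21 gave positions of 42347 identifiers, counted from 1, and 42263 had a symbol.

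The genes named are the 10 of the set, Axl, Adipoq, the 2 genes with the smallest p of each pathway list, the gene most like each of the 10, and the highest and lowest marker of each cell type list but 1. Adrb3, Lipa, Hdgfl2, Elovl3, Lum, Dcn and a sum over 4 lymphocyte markers were added after their values were seen, and some items are not reported here. The 10 genes and the lists were chosen with earlier results of these data known. Alternatives were DESeq2 1.42.0, limma-voom (limma 3.58.1) with sample quality weights, other scaling factors and filters, library sizes without mitochondrial genes, covariates, a replicate block and each library left out. A fibroblast covariate, fold changes within ranges of library numbers and the use of the alternatives on pathway genes were chosen after seeing the data.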

Additional observations from a re-analysis of the deposited data

Results flagged for a closer look

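For the 10 genes and 5 ratios, 30 groups of values were examined for 1 library far from the others of its group by Dixon's 95% limit, and 3 stood out, where chance alone gives about 1 in 20 groups. Pnpla2 in WT replicate 2 was at 4732 CPM, with a gap to the next WT library of 0.746 of the group's range (limit 0.71). Plin5 in iFAXLKO replicate 1 was at 391.6 CPM, with a gap of 0.53 of the range (limit 0.526). The Abhd5 to G0s2 ratio in iFAXLKO replicate 3 was 0.0842 on the log2 scale, with a gap of 0.544 of the range (limit 0.526), and this library held the highest Abhd5 level, 177 CPM, and the lowest G0s2 level of its group, 167 CPM.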

How the results depend on the processing

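The number of the 10 genes called was 0 under every alternative run, and so was that of the pathway genes. Over 260 log2 fold changes of the 10 genes under alternatives, 9 had the opposite sign and none was called, with a lowest edgeR adjusted p of 0.208 for Plin2 in the lower range of library numbers. The count over all genes, 17, was 67 by DESeq2, 5 with CPM over 1 in all libraries and 7 with the fibroblast score as a covariate, and 14 to 19 with 1 library left out. Whether the replicate numbers pair the mice was not settled (r of deviations 0.39, 0.42, 0.19, 0.18 and -0.61 for the 5 numbers), as libraries of different numbers were not compared. With the replicate block 7 genes were called, none of the set, Plin2 had -0.42 (edgeR adjusted p = 0.261) and Pnpla2 turned to 0.0026. The sign turned for Pnpla2 by limma-voom (0.022), for Mgll with the fibroblast covariate (0.035), and in the upper range of library numbers for Plin1 (0.078), Plin4 (0.023) and the ratio of Plin5 to Plin1 (-0.034). With 1 library left out, log2 fold changes ran from -0.074 to 0.043 for Pnpla2, -0.067 to 0.36 for G0s2, -0.015 to 0.14 for Plin5, -0.38 to -0.27 for Plin2, -0.16 to -0.04 for Abhd5, -0.12 to -0.02 for Plin1, -0.21 to -0.05 for Plin4, -0.10 to -0.05 for Mgll, -0.19 to -0.09 for Lipe and -0.22 to -0.12 for Cidec, and the Pnpla2 to G0s2 ratio from -0.43 to 0.018. Pairs past the limit numbered 0 with CPM without TMM factors and 0 to 3 with 1 library left out. The causes were not tested. With 5 WT libraries the 95% interval of G0s2 reaches 1.82 times the WT level.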
